A study of Mus musculus with 8 samples.

Results

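The cells described here are large proliferating thymocytes, or blasts, compared between 2 positions in the cell cycle. They are the cells of clusters 3 and 4 of the deposited table of cells whose phase call there is G2M or S. Of 10237 cells in the series, 2447 lie in those clusters and 2400 of them carry one of these calls, 1657 S and 743 G2M. The remaining 47 are called G1 and were left out. The G2M minus S difference was taken within each of 4 gene expression libraries, and a gene was kept where all 4 pointed the same way.

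The 4 libraries are 5′ single-cell libraries of mouse thymocytes, WT (C57BL/6J) or carrying the GSK3B Ser389Ala knock-in (KI), a change in the kinase GSK3B. DN3 cells were sorted as CD44- CD25+ and DN4 cells as CD44- CD25-, after depletion of cells with MHC class II, CD11b, CD4, CD8 or the kappa light chain. Each of the 4 combinations of genotype and stage is 1 library, with a matching library of T cell receptor sequence, and the number and age of the mice are not given in the sources used here. Where 4 values stand together, the DN3 libraries come before the DN4 libraries and WT before KI. Any p-value below therefore comes from 4 libraries that also differ in genotype and stage, and measures no spread over mice of one group. The edgeR tests below also draw a gene's variance toward that of the other genes. Their p-values thus do not rest on the spread of that gene over 4 libraries alone.

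A DN3 thymocyte that has joined a T cell receptor β gene in frame pairs its product with pre-Tα into the pre-receptor. Signals from it, together with Notch and Il7r, start a burst of divisions (β-selection) that carries the cell through DN4 to the CD4+ CD8+ double-positive stage, where the α gene is rearranged. S is the phase of DNA replication, and G2M joins the gap after it with mitosis. Phase calls of this kind rest on the summed level of 2 standard gene lists. The phase difference of the genes of those lists is therefore described here and not tested.

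WT DN3 held 213 S and 95 G2M cells. KI DN3 held 309 and 176. The DN4 libraries held 334 and 135 (WT) and 801 and 337 (KI). The G2M share of these cells was 30.8% (25.7 to 36.3, exact 95% binomial interval) and 36.3% (32.0 to 40.7) in DN3, and 28.8% (24.7 to 33.1) and 29.6% (27.0 to 32.4) in DN4. These intervals overlap and cover counting error only. Scoring the cells again with the standard lists gave the deposited phase in 98.4% of the 2447 blasts, and no cell barcode was shared between libraries among the members.

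The label of the cells was checked against markers. Compared with the resting cells of clusters 0 and 1, the blasts had more Cd8b1, a CD8 subunit gained on the way to the double-positive stage (131 against 1.77 CPM, a gene's UMIs scaled to the same library total), more Trac, the α constant region (19.4 against 0.786 CPM), and less Il2ra, the CD25 gene (59.9 against 650 CPM). Ptcra, which encodes pre-Tα, stood lower than in the resting cells (91.1 against 624 CPM), as did Trbc1, Trbc2 and Cd3e, so those markers were not raised. The Cd8b1 level was carried by DN4: it lay between 10.8 and 17.9 CPM in both DN3 libraries and between 167 and 250 CPM in both DN4 libraries. Trac was at 4.45 to 10.8 CPM in DN3 and 20.04 to 26.1 CPM in DN4, and Il2ra at 136 to 193 CPM in DN3 and 3.27 to 4.14 CPM in the CD25- DN4 cells, so the pooled values also carry the mix of sorted stages. The phase markers followed their labels in every library. Plk1, a mitotic kinase, was at 33.3, 44.1, 31.9 and 42.0 CPM in S cells and at 220, 241, 219 and 236 CPM in G2M cells. In the scoring lists, Ube2c, a ubiquitin-conjugating enzyme of the anaphase-promoting complex, went from 105, 119, 115 and 116 CPM to 1196, 1248, 1095 and 1098 CPM. Ung, the uracil-DNA glycosylase of replicating DNA, went from 225, 214, 220 and 202 CPM in S to 7.52, 12.4, 12.4 and 14.8 CPM in G2M. Phase calls of this kind rest on the scoring lists, so the direction of Ube2c and Ung follows from the call and does not check it.

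G2M cells also held more RNA. Median UMIs per cell were 20173, 18782, 20542 and 18896 in S cells, and 24532, 22018, 23318 and 22089 in their G2M cells. Every library pointed the same way, with ratios of 1.22, 1.17, 1.14 and 1.17. The mean log2 ratio was 0.23 ± 0.04 (SD, n = 4, two-sided exact sign-flip permutation test p = 0.125, the smallest that 4 libraries allow). Within cluster 4 it was 0.19 ± 0.05. Within cluster 3 it was 0.08 ± 0.09, with the DN4 libraries at -0.0058 and 0.0050. The phases were not spread evenly over the clusters: 38.9% of S cells and 75.4% of G2M cells lay in cluster 4. By library, cluster 4 held 61.0%, 62.8%, 47.0% and 20.3% of S cells and 87.4%, 86.9%, 69.6% and 68.2% of G2M cells, in the order above. Members of lists named here with a ratio alone include some chosen after their values were seen (Lat, Cd3e, Fos, Nfkbia, Btg2, Bax, Bcl2l12, Sun1, Xrcc6, Myc, Notch1, Il7r and Ccnd3). Gene levels below are shares of the library's UMIs (CPM), so they describe what changed relative to this larger total. Fold differences, log2 ratios and list medians of genes are edgeR fits with a further scaling between sums (TMM), unless given per library. They can differ slightly from ratios of CPM. Many results that differ between the clusters are marked, but not all, and not every gene could be tested in each cluster.

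**Figure D1:**
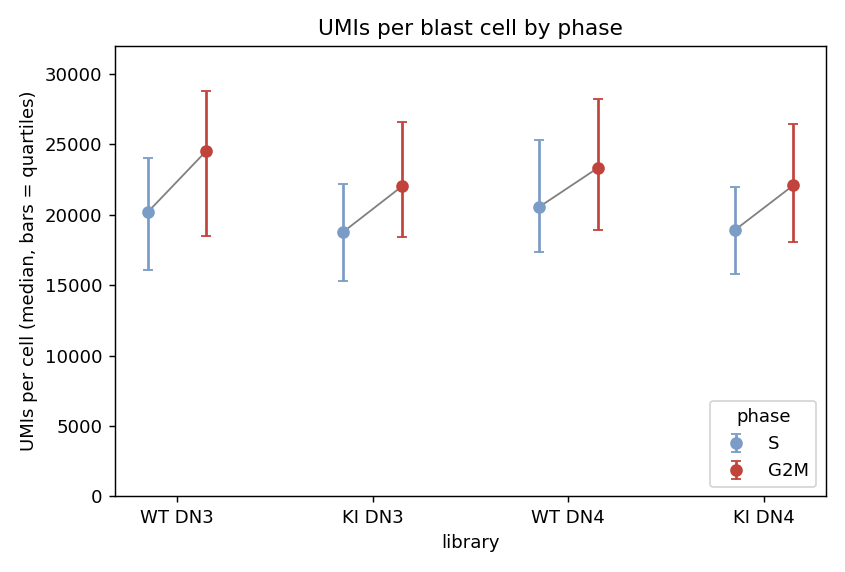
UMIs per cell (y axis) of S and G2M blasts in each of the 4 libraries (x axis): points are medians, bars run from the lower to the upper quartile and grey lines join the phases of a library. The G2M median lies above the S median in all 4 libraries, while the quartile ranges overlap.

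Outside the scoring lists 9468 genes were tested. A gene was called where edgeR's quasi-likelihood test, with the library as block, gave an adjusted p below 0.05 and the CPM of all 4 libraries moved the same way. That held for 1254 genes higher in G2M (13.2% of those tested) and 1387 higher in S (14.6%). With DESeq2 the counts were 545 and 650. The edgeR shares, 13.2% and 14.6%, are the background for the list counts below. Agreement of the 4 libraries alone, with no test, was met by 2338 genes (24.7%) in the G2M direction and 1861 (19.7%) in the S direction. The lists of replication, mitosis and histone genes hold 78, 168 and 31 of the genes tested, and further cycle genes were added by the start of their names. Together these held 148 of the 1254 calls and 67 of the 1387, and 1106 and 1320 lay outside. Most genes tested also lie outside, so these counts do not set the other genes apart. Most were small, and a called difference of at least 2-fold was found for 113 genes higher in G2M (1.19%), 53 of them outside the cycle lists, and for 72 genes higher in S (0.76%), 65 of them outside. The lists do not hold every cycle gene, and some genes outside them, such as Gpsm2 of the mitotic spindle, also act in the cycle.

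Of the genes outside the cycle lists, Pif1, a DNA helicase (chr9:65587160-65595967, plus strand, GRCm38), had the greatest difference. It was at 0.703, 1.54, 1.14 and 1.52 CPM in S cells and at 20.4, 25.7, 15.6 and 23.4 CPM in G2M cells. The lowest G2M library stood about an order of magnitude above the highest S library, and the fitted difference was 15.8-fold (log2 3.98, edgeR adjusted p = 1.25e-15). Prr11 went from 1.87, 2.57, 1.71 and 1.72 CPM to 17.3, 15.6, 19.1 and 17.4 CPM (8.84-fold, edgeR adjusted p = 1.97e-13). Several of the leading genes shape the cytoskeleton or the spindle. Arhgap19, a GTPase-activating protein for RhoA, went from 3.51, 4.80, 3.56 and 5.81 CPM to 20.8, 28.0, 25.4 and 31.3 CPM (5.69-fold). Gpsm2, which anchors and orients the mitotic spindle, went from 5.15, 5.83, 7.69 and 8.58 CPM to 24.8, 24.2, 27.7 and 24.3 CPM (3.38-fold). Smtn, a cytoskeletal protein of the smoothelin family, had 3.75, 4.46, 1.42 and 2.44 CPM in S and 12.8, 15.4, 12.1 and 15.7 CPM in G2M (4.99-fold). For each of these genes the S and G2M libraries did not overlap.

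The other genes of this set of 15 were Tnfaip8l1 (log2 2.61), Mei4 (2.18), Hyls1 (2.16), Sh2d3c (2.07), Emp1 (1.93), Miip (1.88), Rassf3 (1.69), Cep89 (1.56), Ankle1 (1.53) and Lockd (1.41). Hyls1 and Cep89 encode proteins of the centriole and centrosome, and Ankle1 an endonuclease. Lockd, a long non-coding RNA transcribed next to Cdkn1b, was at 45.7, 42.9, 60.2 and 82.7 CPM in S and at 153, 139, 151 and 196 CPM in G2M. All 15 were called with each library left out in turn and by DESeq2, except that Mei4, with 48 UMIs in G2M and 20 in S, was lost in 1 of the 4 and with DESeq2. In cluster 4 alone 13 of the 15 could be tested, and in cluster 3 alone 6, without Pif1, Prr11 and Smtn. Hyls1 and Gpsm2 overlap other genes in the annotation (Pate2 and Pus3, and Clcc1), and whether counting used the strand is not given in the sources used here.

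Genes switched on for mitosis often carry, near their start, the cell cycle genes homology region (CHR), which is bound by the MuvB complex with B-MYB, together with CCAAT boxes bound by NF-Y. E2F sites are typical of genes switched on for replication. RefSeq promoter windows (GRCm38.p6, 250 bases before to 50 after a start site) were found for 7516 tested genes, 9564 windows in all, and searched on both strands for TTTGAA or TTCGAA (CHR), for CCAAT, and for TTTGGCGC, TTTCCCGC, TTTCGCGC or TTTGCCGC (E2F). The CHR letters stood in 14.1% of all windows and in 73.1% of the 52 windows of the G2M scoring list. Outside the cycle lists they stood in 19.5% of 1182 windows of genes called higher in G2M, in 39.3% of 56 windows of those with at least a 2-fold difference, and in 10.2% of 1349 windows of genes called higher in S. CHR and CCAAT occurred in the same window in 5.97% of all windows and in 32.1% of those 56, against 3.28% of 61 windows of genes at least 2-fold higher in S. The E2F letters stood in 4.46% of all windows, in 34.2% of the S scoring list, and in 5.34% of windows of genes higher in S outside the cycle lists. These are matches of letters and not measured binding.

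**Figure D2:**
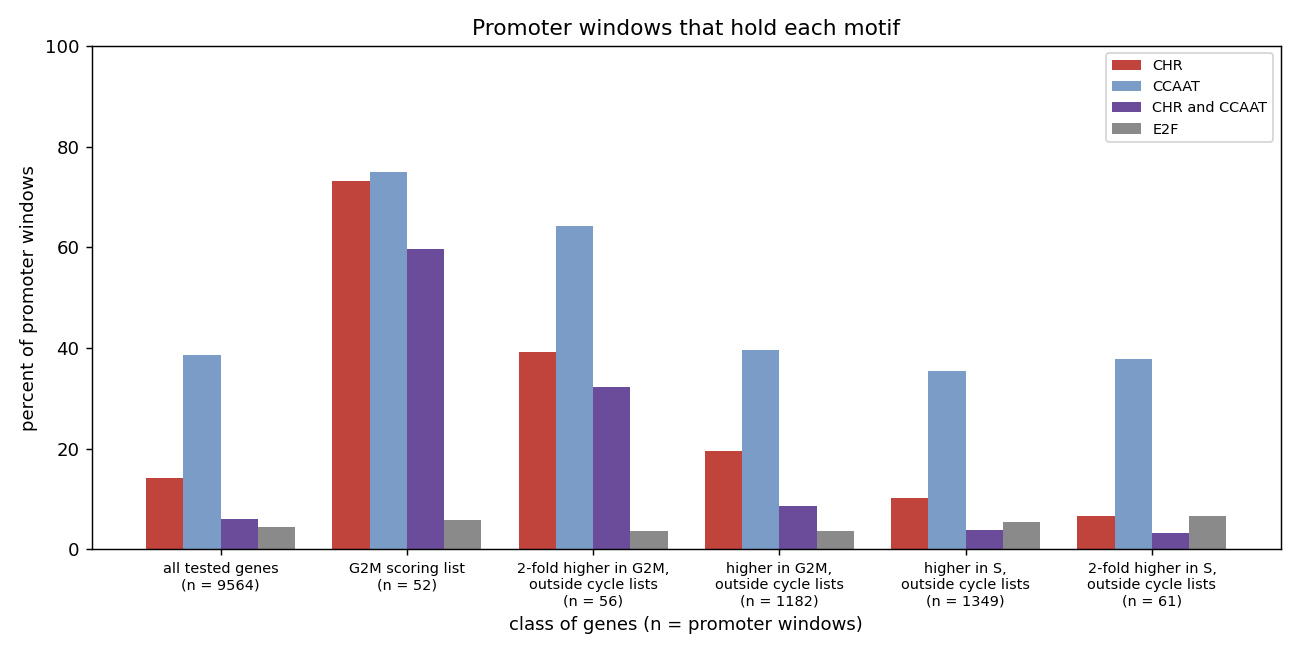
Percent of promoter windows (y axis) that hold the letters of each motif, for classes of genes (x axis, with the number of windows): red CHR, blue CCAAT, purple both in 1 window, grey E2F. CHR falls from 73.1% in the G2M scoring list through 39.3% and 19.5% in genes higher in G2M outside the cycle lists to 10.2% in genes higher in S, with 14.1% of all windows.

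Of the 15 leading G2M genes 13 had a promoter window and 9 of them held the CHR letters, and none of the 14 windows of the leading S genes did. The stretches around those letters, which also stood in 14.1% of all windows, are shown to set them beside the same letters in mitotic genes. They are given 5′ to 3′ on the promoter's strand with the CHR in capitals. The first 7 are from 7 of those 9 genes and the last 4 from Plk1, Aspm, Hmmr and Ube2c.
Prr11: caaagatttaatTTTGAAattttctttatg
Arhgap19: gacagttagataTTTGAAtagaccaatagt
Miip: gcctgtcctcaaTTTGAAttggtagaatta
Gpsm2: gggcgttgtcagTTTGAAtgggcgagcctg
Cep89: ctctggctggaaTTTGAAtgacgccttgct
Ankle1: ttgccgcgcgaaTTTGAActgcagagggcg
Mei4: gtcctagactatTTTGAActattttgcaga
Plk1: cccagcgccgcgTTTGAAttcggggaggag
Aspm: ggaggcgcgataTTTGAAccgagcaaaagc
Hmmr: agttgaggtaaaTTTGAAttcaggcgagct
Ube2c: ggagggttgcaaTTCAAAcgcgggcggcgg

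Their places are chr11:87108694-87108723 (minus strand) for Prr11, chr19:41802162-41802191 (minus) for Arhgap19, chr4:147868733-147868762 (minus) for Miip and chr3:108722315-108722344 (minus) for Gpsm2. Cep89 is at chr7:35396937-35396966 (plus), Ankle1 at chr8:71405990-71406019 (plus) and Mei4 at chr9:81863470-81863499 (plus). Plk1 is at chr7:122159453-122159482 (plus), Aspm at chr1:139454767-139454796 (plus), Hmmr at chr11:40733412-40733441 (minus) and Ube2c at chr2:164769888-164769917 (plus). Counted from the start site, the CHR of Prr11 begins at 3 and that of Ankle1 at -10, as the CHRs of Hmmr at 8, Aspm at 6 and Ube2c at -29 lie close to it. Those of Miip (-31) and Gpsm2 (-33) lie a little upstream, while those of Arhgap19 (-95), Cep89 (-114) and Mei4 (-188) lie farther away. So do those of the genes not shown, Emp1 (-188 and -117) and Lockd (-195), and that of Miip counted from its second start site (-234). The 100 bases before the Arhgap19 start (chr19:41802085-41802184, minus strand, no annotated exon) hold 1 CHR and 2 CCAAT boxes, in capitals, while the same stretch of Zmynd19 (chr2:24949677-24949776, plus strand), of the leading S genes, holds 1 CCAAT box on the opposite strand and no CHR.
Arhgap19: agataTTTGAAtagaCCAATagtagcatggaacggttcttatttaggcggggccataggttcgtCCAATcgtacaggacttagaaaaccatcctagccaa
Zmynd19: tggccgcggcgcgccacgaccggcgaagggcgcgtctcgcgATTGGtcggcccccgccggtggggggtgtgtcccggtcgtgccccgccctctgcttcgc

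On the S side, Zmynd19, a zinc-finger protein (chr2:24949792-24962075, plus strand, GRCm38), was at 64.4, 62.7, 60.1 and 51.6 CPM in S cells and at 22.1, 24.2, 20.4 and 18.2 CPM in G2M cells (2.87-fold higher in S, edgeR adjusted p = 2.95e-14). The libraries did not overlap, and its ratio varied the least over libraries among the 15 leading S genes (SD of log2 0.08, n = 4). Tmem158, a membrane protein, had 9.14, 8.23, 9.82 and 7.92 CPM in S and 3.10, 2.02, 3.82 and 1.91 CPM in G2M (3.50-fold higher in S). Pask, a nutrient-sensing kinase, had 6.33, 9.43, 8.40 and 9.04 CPM in S and 2.21, 1.77, 1.91 and 3.42 CPM in G2M (3.43-fold). The remaining members of this set of 15 had log2 ratios from -2.24 (Pld6, 9 UMIs in G2M) to -1.52 (Plpp5): Fgfbp3, Asap2, AI854703, Lair1, Slco4a1, Sh2b2, Msantd3, Prkar2a, Nsg1 and Fbxl20. Prkar2a is a regulatory subunit of protein kinase A and Lair1 an inhibitory receptor for collagen. Pld6 and Fgfbp3 were lost with 1 library left out and with DESeq2. In cluster 4 alone 12 of the 15 could be tested, and in cluster 3 alone 5, without Pask. Pask, Asap2 and Nsg1 overlap Ppp1r7, Itgb1bp1 and Stx18 in the annotation.

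**Figure D3:**
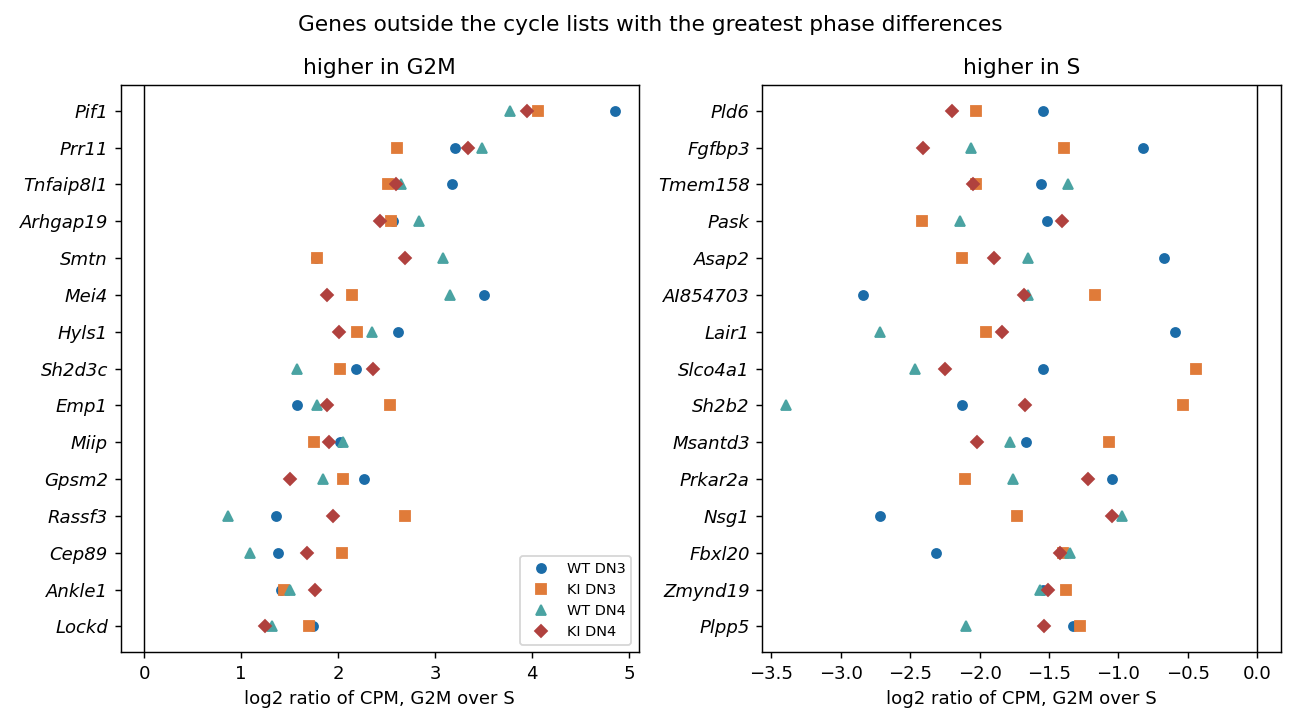
Log2 ratio of CPM, G2M over S (x axis), for the 15 genes per direction with the greatest differences outside the cycle lists (y axis), 1 marker per library. All markers lie on the side of the call, and the spread over libraries is wide for Sh2b2, while the 4 Zmynd19 markers lie close together (Pld6 in WT DN4, with no UMI in G2M, is not drawn).

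As shares of the UMIs, biosynthetic genes were lower in G2M cells as groups. UMIs per cell were higher in G2M by a mean log2 of 0.23, so a lower share is not in itself a lower amount per cell. Of 48 tested genes of ribosome biogenesis and Myc targets, 32 were higher in S and 0 in G2M, with a median log2 ratio of -0.22 beside 0.0013 for all genes. Utp20, a component of the small subunit processome, had 25.1, 30.0, 26.5 and 30.8 CPM in S and 14.2, 18.9, 20.4 and 16.9 CPM in G2M (log2 -0.74, edgeR adjusted p = 3.49e-06). Srm, the spermidine synthase, had 560, 575, 466 and 458 CPM in S and 415, 381, 345 and 329 CPM in G2M (log2 -0.52). Every G2M library of Utp20 and of Srm stood below every S library. Myc itself was not called: it had 145, 153, 110 and 106 CPM in S and 195, 166, 118 and 109 CPM in G2M (log2 0.13, edgeR adjusted p = 0.0901). Of 77 cytoplasmic ribosomal protein genes, 71 were called higher in S and 0 higher in G2M, with a median of only -0.11. By library, the medians of their CPM ratios were -0.075, -0.057, -0.091 and -0.084, beside 0.041, 0.031, 0.0022 and 0.030 for all genes.

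Nucleotide and folate synthesis had 23 of 31 tested members higher in S, 1 higher in G2M and a median of -0.30. Shmt1, which feeds one-carbon units to thymidylate synthesis, had 144, 150, 138 and 115 CPM in S and 74.4, 84.5, 73.5 and 75.8 CPM in G2M (log2 -0.83, edgeR adjusted p = 1.67e-11). Umps, the last enzyme of uridine monophosphate synthesis, had 220, 192, 193 and 189 CPM in S and 139, 124, 120 and 121 CPM in G2M (log2 -0.69). Both were separated in all libraries. Glycolysis had 10 of 20 members higher in S and 0 higher in G2M (median -0.22), led by 3 phosphofructokinase genes, the enzyme that commits glucose to glycolysis: Pfkl (-0.53), Pfkp (-0.49) and Pfkm (-0.33). Of these, Pfkm was lost with DESeq2 and in 3 of the 4 fits that left out a library. Of 14 nutrient transporters 6 were higher in S and 0 in G2M, among them the glutamine carrier Slc1a5 (-0.44) and the folate carrier Slc19a1 (-0.44). Of 26 translation factors 11 were higher in S and 3 in G2M, beside 14.6% and 13.2% of all genes. Eif4ebp1, which restrains the cap-binding protein, was higher in S (-0.62), while the cap-binding protein itself, Eif4e, was higher in G2M (0.27).

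Cholesterol synthesis gave 8 of 23 members higher in S and 1 in G2M (median -0.16), beside 14.6% and 13.2% of all genes. Idi1, the isopentenyl diphosphate isomerase, had a log2 ratio of -0.51. Mvk, the mevalonate kinase of the same pathway, went the other way, from 17.6, 16.8, 13.2 and 15.4 CPM in S to 22.6, 30.0, 24.2 and 25.8 CPM in G2M (log2 0.70, edgeR adjusted p = 8.96e-06). In cluster 3 alone this list had a median of 0.03 and 0 members higher in S, and in cluster 4 alone -0.35. The genes encoded by the mitochondrial genome gave 8 of 13 higher in S and 0 in G2M (median -0.10, mt-Cytb -0.13). The nuclear genes of oxidative phosphorylation gave 12 of 50 higher in S and 4 in G2M (median -0.03). The medians of the CPM ratios of this nuclear list were -0.0076, 0.0035, -0.011 and 0.0049 by library.

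**Figure D4:**
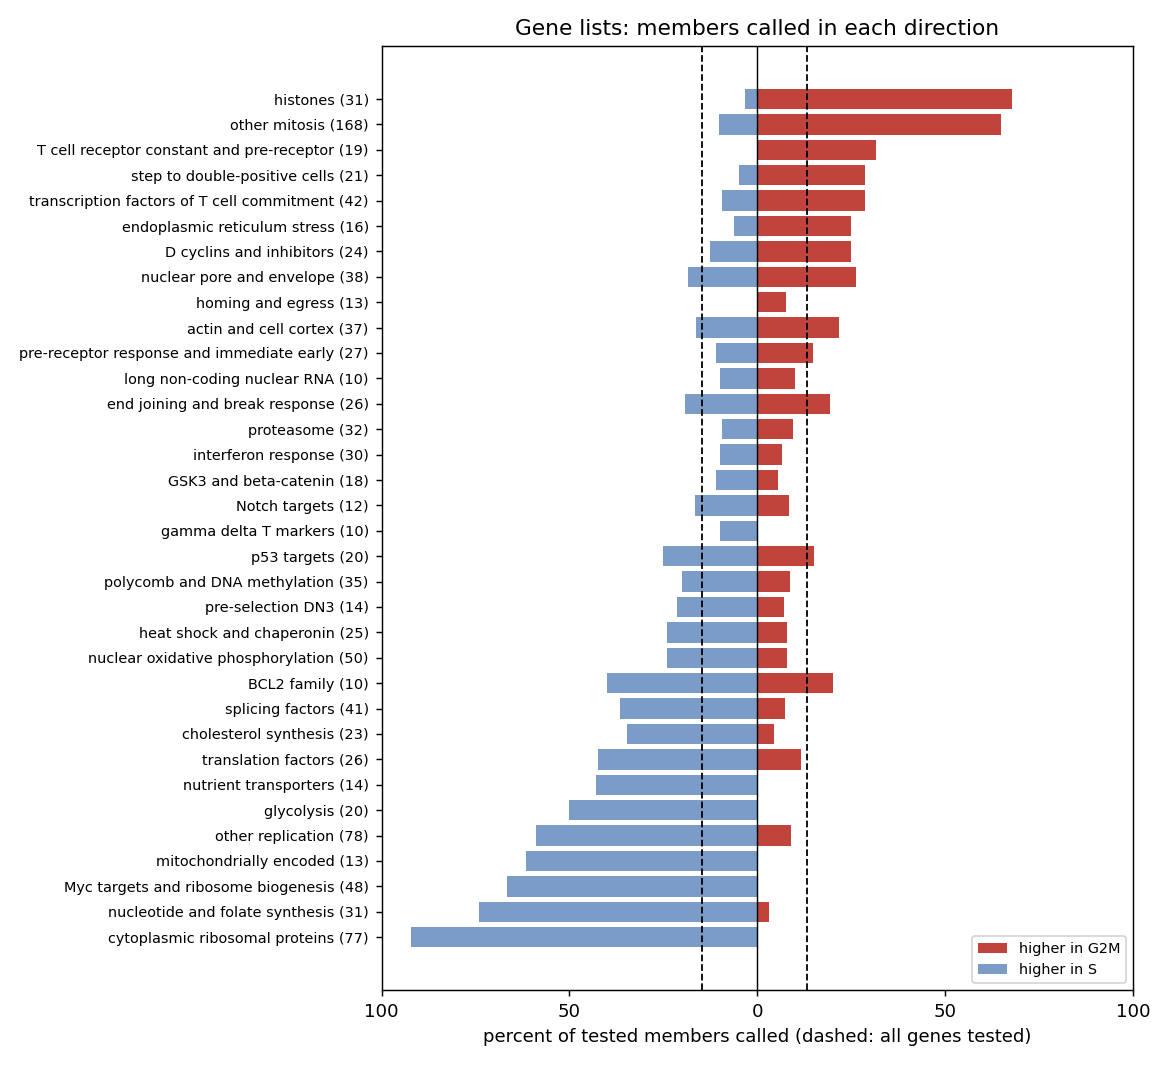
Percent of tested members of each gene list (y axis, number tested in brackets) called higher in G2M (red, to the right) or higher in S (blue, to the left), with dashed lines at 13.2% and 14.6% for all genes tested. Ribosome, nucleotide, glycolysis and replication lists extend far to the S side, and mitosis and histone lists to the G2M side.

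Among T cell genes the differences were smaller. Of 19 tested genes of the receptor constant regions, CD3 and proximal signalling, 6 were higher in G2M and 0 in S, with a median of 0.15. In cluster 3 alone 0 were higher in G2M and 1 in S (median 0.05), and in cluster 4 alone 9 and 0 (median 0.14). Trbc2, a β constant region, had 402, 607, 533 and 346 CPM in S and 507, 694, 676 and 406 CPM in G2M (log2 0.24, edgeR adjusted p = 3.13e-06). The other, Trbc1, was not called, with log2 ratios of -0.23, -0.088, -0.081 and 0.064 over the libraries. Lck, the kinase that starts receptor signalling, had 707, 718, 660 and 664 CPM in S and 849, 842, 754 and 761 CPM in G2M (log2 0.19). Libraries of Trbc2 overlapped between phases, since they differ in level from one another, but G2M was higher within each, and those of Lck did not overlap. Themis, a signalling adaptor (0.42), Lcp2, the adaptor SLP-76 (0.30), Lat (0.15) and Cd3e (0.09, lost with DESeq2 and at -0.14 in cluster 3) were the other called members.

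Of 42 tested transcription factors of T cell commitment 12 were higher in G2M and 4 in S (median 0.08), beside 13.2% and 14.6% of all genes. Gata3, needed at β-selection and for the CD4 lineage, had 76.6, 55.5, 66.3 and 47.7 CPM in S and 94.7, 87.3, 90.3 and 71.2 CPM in G2M (log2 0.48, edgeR adjusted p = 1.34e-06). Runx1, a factor of commitment, had 126, 80.6, 92.5 and 70.5 CPM in S and 198, 127, 127 and 101 CPM in G2M (log2 0.54). Its relative Runx3 went the other way (16.4, 16.1, 11.5 and 11.0 CPM in S, 6.20, 11.1, 8.91 and 7.93 CPM in G2M, log2 -0.63, lost with DESeq2). Tcf7, the factor TCF-1, had 739, 884, 1075 and 838 CPM in S and 637, 796, 864 and 680 CPM in G2M (log2 -0.28, edgeR adjusted p = 2.75e-08). Tox2 (1.10), Bcl11b (0.29) and Tox (0.36) were higher in G2M. The direction depended on the cluster for several of these. In cluster 3 alone Runx1 stood at -0.51 and Bcl11b at -0.15, against 0.81 and 0.60 in cluster 4, and the list's median was -0.15 against 0.14. Gata3 (0.15 and 0.63) and Tcf7 (-0.19 and -0.16) kept their sign in both clusters.

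The list of genes that mark or drive passage to the double-positive stage gave 6 of 21 higher in G2M and 1 in S, beside 13.2% and 14.6% of all genes, and 0 and 0 of 20 in cluster 3 alone (median -0.015). Rag2, one subunit of the recombinase that cuts receptor genes, had 7.73, 6.51, 13.2 and 8.25 CPM in S and 19.0, 10.8, 13.4 and 11.6 CPM in G2M (log2 0.52, edgeR adjusted p = 0.0136). The difference was widest in WT DN3 and close to nothing in WT DN4, and the call was lost with DESeq2 and in 2 of the 4 fits that left out a library. Dntt, the terminal transferase that adds bases at receptor joints, was lower in G2M (-0.21). Of 14 tested genes typical of DN3 cells before selection 3 were higher in S and 1 in G2M, beside 14.6% and 13.2% of all genes. Kit, the receptor for stem cell factor, had 3.98, 5.31, 2.42 and 2.37 CPM in S and 2.66, 1.26, 0.636 and 1.09 CPM in G2M (log2 -1.40, edgeR adjusted p = 0.00119, 21 UMIs in all in G2M, not called by DESeq2). Dtx1, a Notch target, stood at -0.62 (lost with DESeq2), while Notch1 (-0.12) and Il7r (0.14) were not called. In the set that answers the pre-receptor, 4 of 27 were higher in G2M and 3 in S, shares near the 13.2% and 14.6% of all genes. The values below are those of single members. Nr4a1, an immediate early gene of receptor signalling, had 87.4, 72.0, 141 and 102 CPM in S and 67.3, 60.8, 103 and 73.2 CPM in G2M (log2 -0.43, edgeR adjusted p = 1.77e-06), and Nr4a2 (-0.43) and Fos (-0.24) went with it, while Klf6 (0.56), Klf2 (0.53), Nfkbia (0.40) and Btg2 (0.35) were higher in G2M. Nr4a2 and Klf2 were lost with DESeq2 and in 1 of the 4 fits that left out a library, and Klf2 stood at -0.084 in cluster 3.

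Regulators of G1 and of survival were among the called genes. Of 24 tested D cyclins, their kinases and inhibitors, 6 were higher in G2M and 3 in S (median 0.09), beside 13.2% and 14.6% of all genes. DESeq2 called 4 and 2 of them, and the counts were 4 and 3 in cluster 3 alone and 3 and 4 in cluster 4 alone. Inhibitors of CDK4 and CDK6 were higher in G2M: Cdkn2d went from 23.0, 32.4, 27.8 and 33.1 CPM to 71.7, 72.7, 78.9 and 69.7 CPM (log2 1.25, edgeR adjusted p = 2.2e-11), and Cdkn2c from 28.4, 31.9, 34.9 and 39.8 CPM to 64.6, 59.0, 63.0 and 62.5 CPM (log2 0.80). Neither overlapped between phases, but within cluster 3 Cdkn2c stood at -2.19. Ccng2, a cyclin of arrested cells, went from 5.62, 7.54, 8.68 and 7.32 CPM to 22.6, 16.4, 23.2 and 18.0 CPM (log2 1.36). Ccnd2, a D cyclin, was lower in G2M (83.2, 70.3, 46.0 and 35.0 CPM in S, 62.4, 56.3, 22.6 and 26.2 CPM in G2M, log2 -0.52), and Ccnd3, the D cyclin required for this burst of divisions, was not called (log2 -0.02). Of 10 tested members of the BCL2 family 4 were higher in S, all of them promoting cell death, Bbc3 (-1.23), Bcl2l11 (-0.43), Bad (-0.26) and Bax (-0.14), and 2 were higher in G2M, Bcl2l12 (0.20) and the protective Mcl1 (0.23). Bbc3, the gene of PUMA, had 5.62, 2.40, 3.99 and 3.17 CPM in S and 2.21, 0.505, 1.91 and 1.64 CPM in G2M, only 25 UMIs in G2M, and DESeq2 called none of these 6. In cluster 3 alone 1 of 9 tested members was higher in S and 0 in G2M, and in cluster 4 alone 0 of 9 either way. Of the 4 fits that left out a library, Bbc3 was called in 3, Bad in 2 and Mcl1 in 1. The p53 targets as a list were split, 5 of 20 higher in S and 3 in G2M. The BCL2 and p53 lists stand beside 14.6% of all genes higher in S and 13.2% higher in G2M.

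Replication and mitosis genes outside the scoring lists followed the phases: 109 of 168 tested mitosis genes were higher in G2M and 17 in S, and 46 of 78 replication genes were higher in S and 7 in G2M. E2f1, which drives entry into S, had 130, 118, 116 and 92.0 CPM in S and 23.5, 29.0, 43.3 and 32.8 CPM in G2M (3.43-fold higher in S). Histone genes were the exception to a common direction. Their replication-dependent mRNAs are made in S and mostly lack a poly(A) tail, while these libraries read polyadenylated RNA. Of 31 tested, 21 were higher in G2M and 1 in S (median 0.32). In cluster 3 alone the median was -0.51, with 1 of 23 higher in G2M and 8 in S, and in cluster 4 alone 0.20, with 12 of 30 and 1. Hist1h2ab had 43.8, 15.1, 39.4 and 24.5 CPM in S and 93.0, 32.0, 65.5 and 40.6 CPM in G2M (log2 0.84), and -0.83 in cluster 3. H2afx, the variant H2AX that marks DNA breaks, had a ratio above 0 in both clusters (327, 420, 267 and 324 CPM against 1044, 1094, 914 and 934 CPM, log2 1.55, edgeR adjusted p = 3.33e-05).

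**Figure D5:**
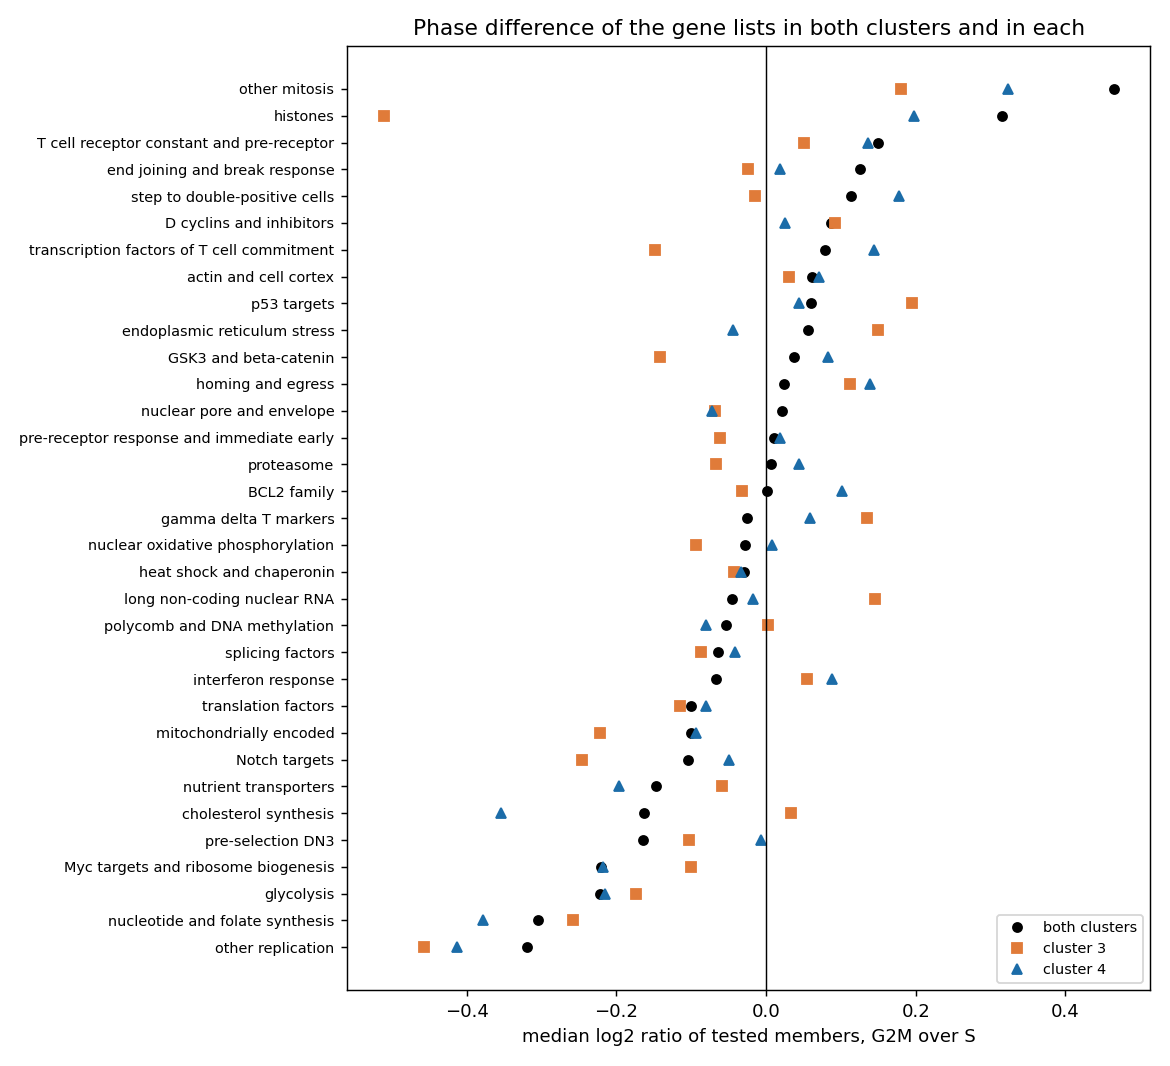
Median log2 ratio of the tested members of each list (x axis, G2M over S) for each list (y axis) in both clusters together (black circles), in cluster 3 (orange squares) and in cluster 4 (blue triangles). The histone list lies at -0.51 in cluster 3 and 0.20 in cluster 4, while nucleotide synthesis, glycolysis and ribosome biogenesis lie below 0 in both.

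Nuclear and chromatin genes were split by gene, and their list counts stand beside 13.2% of all genes higher in G2M and 14.6% higher in S. Of 38 tested genes of the nuclear pore and envelope 10 were higher in G2M and 7 in S. The inner membrane protein Sun2 had 33.5, 36.0, 29.2 and 28.2 CPM in S and 83.2, 71.9, 63.0 and 51.5 CPM in G2M (log2 1.01, edgeR adjusted p = 5.54e-11), while its relative Sun1 (-0.65, lost with DESeq2) and the A-type lamin gene Lmna (-0.88) were higher in S. Kpna2, an importin α that also serves the spindle, stood at 2.31. In the end-joining and break response list, 5 of 26 were higher each way: Tdp1, which clears topoisomerase from DNA ends (0.63), and Xrcc6, the Ku70 subunit (0.29), were higher in G2M, and the kinase Atm (-0.54) and the ubiquitin ligase Rnf168 (-0.52) in S. Of 35 polycomb and DNA methylation genes 7 were higher in S and 3 in G2M, with Cbx2, a polycomb reader, at -1.12 and Dnmt3a at -0.39. Malat1, a nuclear long non-coding RNA, had 903, 782, 641 and 516 CPM in S and 1335, 1165, 956 and 847 CPM in G2M (log2 0.58, edgeR adjusted p = 4e-15).

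Stress and cytoskeleton lists were mixed, beside 13.2% of all genes higher in G2M and 14.6% higher in S. Of 16 genes of endoplasmic reticulum stress 4 were higher in G2M and 1 in S, with Pdia4, a folding enzyme, at 0.39 and Xbp1 at 0.33. The median of this list was 0.15 in cluster 3 alone and -0.04 in cluster 4 alone. Of 32 proteasome genes 3 were higher each way. Of 37 actin and cortex genes 8 were higher in G2M and 6 in S, among the first the formin Diaph3 (0.91), Rac2 (0.27) and Rhoa (0.17). Gsk3b, the gene changed in KI mice, had 71.0, 59.5, 66.2 and 60.4 CPM in S and 72.6, 61.3, 67.1 and 58.2 CPM in G2M (fitted log2 -0.03, edgeR adjusted p = 0.767, mean log2 ratio of CPM 0.011). Of its list of 18 partners and β-catenin genes, 1 was higher in G2M and 2 in S, Tle1, a corepressor of TCF factors (-1.13), and Tcf7. Markers of other cells were summed over each list. NK, innate and mature T cell markers lay between 693 and 912 CPM in S and between 811 and 920 CPM in G2M (19 of 20 in the matrix, 4 at 0), and B cell markers between 244 and 385 and between 260 and 406 CPM (6 of 10 in the matrix). Both sums were higher in G2M in all 4 libraries. Myeloid and dendritic markers, between 270 and 324 CPM in S and between 228 and 310 CPM in G2M (13 of 16 in the matrix, 2 at 0), were lower in G2M in all 4. Most of this sum was Bst2, also in the interferon list, at 285, 268, 250 and 241 CPM in S and 271, 256, 201 and 196 CPM in G2M. Of the 3 tested members, Bst2 (-0.22) and H2-Ab1 (-0.39) were called higher in S. Tcf4 (0.42) was called higher in G2M. H2-Ab1 and Tcf4 were lost with DESeq2. The γδ T cell sum (285 to 700 and 303 to 640 CPM, 15 of 19 in the matrix, 1 at 0) and the stromal sum (41.8 to 74.9 and 24.8 to 79.5 CPM) moved in no common direction, and erythroid markers were under 2.41 CPM in either phase. Of single markers, Nkg7, a granule protein of cytotoxic cells, was lower in G2M (-0.86), as was Tcrg-C2, a γ constant region (-0.24, lost with DESeq2). The part of other cells in the phase differences was not tested.

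Whether a phase difference itself differed between genotypes was tested as an interaction, with 2 libraries on each side. edgeR called 2 of 9568 genes (0.0209%), 1 in each direction (0.0105%), with 396 (4.14%) at an unadjusted p below 0.05, and DESeq2 called 0. Of these, Apobec3, an antiviral cytidine deaminase, had 151 and 112 CPM in S and 293 and 184 CPM in G2M of WT DN3 and WT DN4, and 33.6 and 31.5 CPM in S and 37.1 and 26.6 CPM in G2M of KI DN3 and KI DN4. It was thus higher in WT in either phase, and its G2M minus S difference was lower in KI by 0.94 on the log2 scale (interaction log2 -0.94, edgeR adjusted p = 0.00904). The other was Trbv30, a receptor segment with 0 UMIs in 3 of 8 sums, named here after its values were seen.

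Between stages 31 genes (0.324%) differed in their phase difference, 11 (0.115%) more to the G2M side in DN4 and 20 (0.209%) more to the S side, with 851 (8.89%) at an unadjusted p below 0.05, and 3 differed with DESeq2. The shares of cells in cluster 4, given above, also differ between the stages, and their part in these differences was not tested. Ptcra had 102 and 87.9 CPM in S and 115 and 84.5 CPM in G2M of the DN3 libraries (WT first), and 119 and 92.4 CPM in S and 74.7 and 60.1 CPM in G2M of the DN4 libraries. It was thus lower in G2M in both DN4 libraries and moved by less in DN3 (interaction log2 -0.69, edgeR adjusted p = 0.00329, 0.20 in cluster 3 alone). Isg15, an interferon-induced gene, had 41.7 and 28.5 CPM in S and 58.9 and 34.6 CPM in G2M in DN3, and 54.5 and 42.2 CPM against 30.9 and 26.1 CPM in DN4 (interaction log2 -1.13, edgeR adjusted p = 0.000312). Rag1 and Hes1, chosen after their values were seen, had the same form. Rag1, the other recombinase gene, went from 15.9 and 14.2 to 26.1 and 23.5 CPM in DN3 and from 49.3 and 41.8 to 41.7 and 34.2 CPM in DN4 (interaction log2 -0.99, edgeR adjusted p = 0.0101). Hes1, a Notch target, went from 47.3 and 35.3 to 58.4 and 44.1 CPM and from 32.3 and 16.7 to 22.6 and 11.2 CPM (-0.85, edgeR adjusted p = 0.0190). In all 4 genes, G2M was above S in WT DN3 and below it in both DN4 libraries. In KI DN3 only Ptcra was not above S.

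The phase difference of the blasts was set against that of the 946 S and G2M cells in the other clusters, 742 S and 204 G2M. Of 8829 genes 439 (4.97%) differed, 213 (2.41%) with a positive and 226 (2.56%) with a negative interaction, and 152 when only clusters 6 and 7 stood for the other cells. The scoring lists themselves differed less between phases in the blasts. Of 46 S scoring genes 15 had a positive interaction and 0 a negative one. Of 53 G2M scoring genes 1 had a positive and 12 a negative one. Since the calls rest on genes of this kind, these counts describe the phase contrast and are not read as a test. The part of this narrower phase contrast in the other lists was not tested. Ribosome biogenesis and nucleotide synthesis were also less S-biased in the blasts: 9 of 48 and 10 of 31 members had a positive interaction and 0 a negative one. Srm showed it most clearly, with per-library ratios of -0.48 ± 0.08 in the blasts and -1.73 ± 0.18 in the other cells (interaction log2 1.27, edgeR adjusted p = 9.81e-07). Fbl, the methyltransferase of ribosomal RNA processing, gave -0.11 ± 0.08 and -0.98 ± 0.15. Histones lay the other way, with 11 of 28 negative and 0 positive. Hist1h2bc had -1.23 ± 0.63 in the blasts and 3.52 ± 1.77 in the other cells, but does not stand for the list. It was the 1 histone gene of 31 called higher in S in the blasts, with 40 UMIs in G2M, and DESeq2 did not call it. In the other cells it was at 2.67, 6.09, 1.03 and 1.65 CPM in S and at 88.2, 72.2, 22.1 and 3.37 CPM in G2M. Malat1 was higher in G2M in the blasts (0.61 ± 0.07) and not in the other cells (-0.20 ± 0.16).

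Receptor sequence, read from separate libraries, gave a measure that the phase calls did not use. A productive TRB contig was found in 86.9%, 84.1%, 96.7% and 95.6% of S cells and in 81.1%, 83.0%, 94.8% and 94.1% of their G2M cells. The share was lower in G2M in all 4 by a mean of 2.61 points (-2.61 ± 2.15, SD, n = 4, two-sided exact sign-flip permutation test p = 0.125, the smallest possible), and each library's exact binomial intervals overlapped. Within cluster 4 the share was lower in G2M in WT DN3 alone, and within cluster 3 it was higher there and lower in the other libraries. Productive TRA contigs were rare in both phases: 18 of the S cells and 5 of the G2M cells held one. In DN3 they were found in 0 of 213 S and 0 of 95 G2M cells of WT, where a count of 0 allows up to 1.41% and 3.16% (3 cells of the total), and in 1 of 309 and 0 of 176 cells of KI (up to 1.70% of G2M cells). In DN4 they were found in 9 of 334 and 1 of 135 cells of WT and in 8 of 801 and 4 of 337 cells of KI. Median UMIs on the TRB contigs were 46, 42, 51 and 50 in S and 57, 64.5, 66.5 and 66 in G2M. They were higher in G2M in each library. These are UMIs per cell and not shares, and the gene expression libraries also had more UMIs per cell in G2M. By CPM, Trbc2 was higher in G2M in each library and Trbc1 was not called. Few TRB sequences were seen in more than 1 cell, 1 in each DN3 library and, of the DN4 libraries, 3 in WT and 4 in KI, and 1 of the 3 joined an S and a G2M cell.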

How the data were processed

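The UMI count matrix of 15653 genes and 10237 cells, the cell metadata with clusters and phase calls, and the receptor contigs with their UMI counts were used as the authors deposited them. The submitters' processing notes name Cell Ranger 3.1.0 and 6.0.1 and mm10. How phases and clusters were called is not given in the sources used here. The members and the gene lists were chosen with earlier results of these data known.

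UMIs were summed per library and phase into 8 sums, with 4268036 to 15158063 UMIs in S and 2259144 to 7317784 in G2M. They were fitted with edgeR 4.0.16 (R 4.3.3; TMM, filterByExpr with a minimum count of 10, robust quasi-likelihood, Benjamini-Hochberg adjustment), with the library as block because both phases of a pair come from one library. This left 3 residual degrees of freedom. Genes tested numbered 9568, of which 100 scoring genes are described without a test of the phase difference. The counts of interactions include scoring genes. CPM are a sum's UMIs over its total. List medians are medians of fitted log2 ratios. Interactions with genotype and stage set 2 libraries against 2. The interaction with blast identity used 16 sums. The script was checked on simulated counts.

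The genes named are the 15 of largest ratio in each direction outside the cycle genes (also without ribosomal protein, mitochondrial, receptor segment and predicted genes), up to 4 called genes per list, 3 per scoring list, up to 6 per interaction, and Gsk3b. Doublets, marked for 48 members with scanpy 1.11.5, were kept and left out as an alternative. Gene positions are those of GRCm38, and promoters come from RefSeq (GRCm38.p6). Other alternatives were DESeq2 1.42.0, other filters and scalings, single clusters, cells thinned to 7000 UMIs, no block and leaving out each library.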

Additional observations from a re-analysis of the deposited data

Results flagged for a closer look

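Each result here is an interaction, a difference between groups in the log2 ratio of G2M over S, tested with edgeR. Cenpa, Ccnb2 and Cdca7 are scoring genes, on which phase calls of this kind rest. Their values are described and not read as a test. Between genotypes the ratio of Apobec3 was lower in KI (-0.94). Between stages, the ratios of the mitotic genes Cenpa (-0.87) and Ccnb2 (-0.63) were lower in DN4. Cenpa, the centromeric histone, had 56.0 and 59.1 CPM in S of DN3 and 99.1 and 109 CPM in S of DN4, with 297 to 346 CPM in G2M throughout. Isg15 (-1.13), Ptcra (-0.69) and Anxa2 (-0.36) had lower ratios in DN4, and Pclaf, a PCNA-binding factor, a higher one (0.28). Between blasts and the other cells, the ratios of Malat1 (0.81), Srm (1.27), Fbl (0.87) and the scoring gene Cdca7 (1.04) were higher in the blasts. Those of Hist1h2bc (-5.05, with 40 UMIs in G2M blasts) and the nucleosome-binding Hmgn2 (-0.84) were lower.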

How the results depend on the processing

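The counts of genes higher in G2M and in S, 1254 and 1387, were 545 and 650 with DESeq2, 446 and 493 with no replicate block for the library, 417 and 537 in cluster 3 alone, and 591 and 694 with cells thinned to equal UMIs. Leaving out each library gave 898 to 1217 and 1103 to 1243. Of the genes called with all cells, 87.6% and 91.7% had the same direction in cluster 3, where WT DN3 has 12 G2M cells, and 99.7% and 99.8% after thinning. For the genotype interaction, 2 genes became 9 with no filter, 1 at a mean of at least 20 CPM, 0 with DESeq2, 5 in cluster 3 and 10 in cluster 4. For the stage interaction, 31 became 85 with no filter, 3 with DESeq2, 5 in cluster 3 and 7 in cluster 4. For the blast interaction, 439 became 152 with clusters 6 and 7 only and 154 to 524 with 1 library left out (226 without WT DN3, 154 without KI DN3, 157 without WT DN4). In cluster 3 alone these ratios changed sign: Hist1h2ab -0.83, Bcl11b -0.15, Klf2 -0.084, Nop2 0.011, Luc7l3 0.068, Cdkn2c -2.19 and Runx1 -0.51, the stage interactions of Ptcra (0.20), Pclaf (-0.31) and Anxa2 (0.011), and, of 37 list medians, 15, of which those at least 0.1 from 0 with all cells were the histone (-0.51), double-positive step (-0.015), cholesterol (0.034), end-joining (-0.025) and NK and mature T marker (-0.21) lists. Beside these, the T cell commitment factors stood at -0.15 and the GSK3 list at -0.14 there. The Notch target median ran from -0.19 to 0.049 with 1 library left out, changing sign without KI DN4, and the stromal median was -0.36 at a mean of at least 20 CPM. The log2 ratio of UMIs per cell ran from 0.21 to 0.25, the difference in productive TRB share from -3.09 to -1.55 points and that in TRA from -0.76 to -0.05 points. The causes of these changes were not tested. With 1 library per group, genotype and stage effects have no replicate of their own, and genes under about 10 CPM rest on few UMIs in the smallest sum.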
